A study of Mus musculus with 8 samples.

Results

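Microglia isolated from white matter and from grey matter of 21-month-old wild-type mice were compared by RNA sequencing, with 2 libraries of each, 4 of the 8 libraries in the series. The 4 libraries were chosen by age alone, from the labels, and the genes described run across the transcriptome, with particular attention to those outside the lists of disease-associated and neutrophil genes. The other 4 libraries hold the same pair of tissues from 4-month-old wild-type mice and were used only for the comparison between ages. All groups share the same isolation: tissue was dissociated, myelin was removed on a Percoll gradient, and cells were taken with magnetic beads against CD11b, the integrin subunit that microglia share with other myeloid cells. White and grey matter were told apart by the titles and tissue labels, since a further region label names the corpus callosum for the grey matter samples as well. Nothing in the labels ties the 2 libraries of each group to separate animals, so the p-values measure only the spread between these libraries, which may be technical.

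Microglia are the resident macrophages of the brain and spinal cord. They survey neural tissue, prune synapses, clear debris and, in white matter, take up and digest the lipid-rich membrane of myelin. With age and in disease part of the population turns down surface genes such as the purine receptor P2ry12 and turns on genes of lipid transport, lysosomes and secretion, a state often called disease-associated. The CD11b selection also takes neutrophils, monocytes and the macrophages of the brain's borders where these are present, and in bulk RNA fewer cells of a type and less RNA per cell cannot be told apart.

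The 4 libraries held between 3273258 and 4545028 estimated counts over 51810 annotated genes, and 14717 genes passed the filter on low counts. Values are CPM, the counts scaled to a common library size by TMM, and differences are log2 fold changes of white against grey matter from an edgeR quasi-likelihood fit of the 4 libraries, called at an adjusted p under 0.05. Microglial genes were abundant in all 4 libraries: Csf1r, the receptor for the survival factors CSF1 and IL-34, stood at 4441 and 4496 CPM in the white and 3922 and 4904 CPM in the grey matter libraries, and Cx3cr1, the fractalkine receptor, at 2015 and 1751 CPM in the white and 1980.2 and 2321 CPM in the grey matter libraries. Markers of other cells did not lie evenly over the libraries. The 13 choroid plexus markers in the table summed to 445 and 13206 CPM in the white and 535 and 414 CPM in the grey matter libraries, most of it transthyretin (Ttr) at 316 and 9760.2 CPM in the white and 379 and 265 CPM in the grey matter libraries, so the second white matter library stood apart. The 10 red blood cell markers summed to 829.6 and 221 CPM in the white and 2959 and 804 CPM in the grey matter libraries, highest in the first grey matter library. The 26 neutrophil markers summed to 1224 and 677 CPM in the white and 3915 and 3472 CPM in the grey matter libraries, and here both grey matter libraries lay above both white matter libraries. The 16 oligodendrocyte markers summed to 1184 and 3768 CPM in the white and 769 and 1016 CPM in the grey matter libraries, higher in both white matter libraries. Enpp2, which the choroid plexus also makes, held 2606 CPM of the sum in the second white matter library, and Mbp, encoding myelin basic protein, overlapped between the tissues, at 107 and 90.2 CPM in the white and 94.9 and 87.8 CPM in the grey matter libraries. Of the 15 tested, 12 had a log2 fold change above 0 (median 0.50). edgeR called 0, with 3 at an unadjusted p under 0.05, against 1675 of all 14717 genes tested, and DESeq2 called 2. Their part in the results was not tested. None of the 10 choroid plexus or 6 red blood cell genes tested was called by edgeR, with 0 of either list at an unadjusted p under 0.05 and 0 by DESeq2. All 10 choroid plexus genes still had a log2 fold change above 0 (median 3.65), and all 6 red blood cell genes one below 0 (median -1.87).

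**Figure D1:**
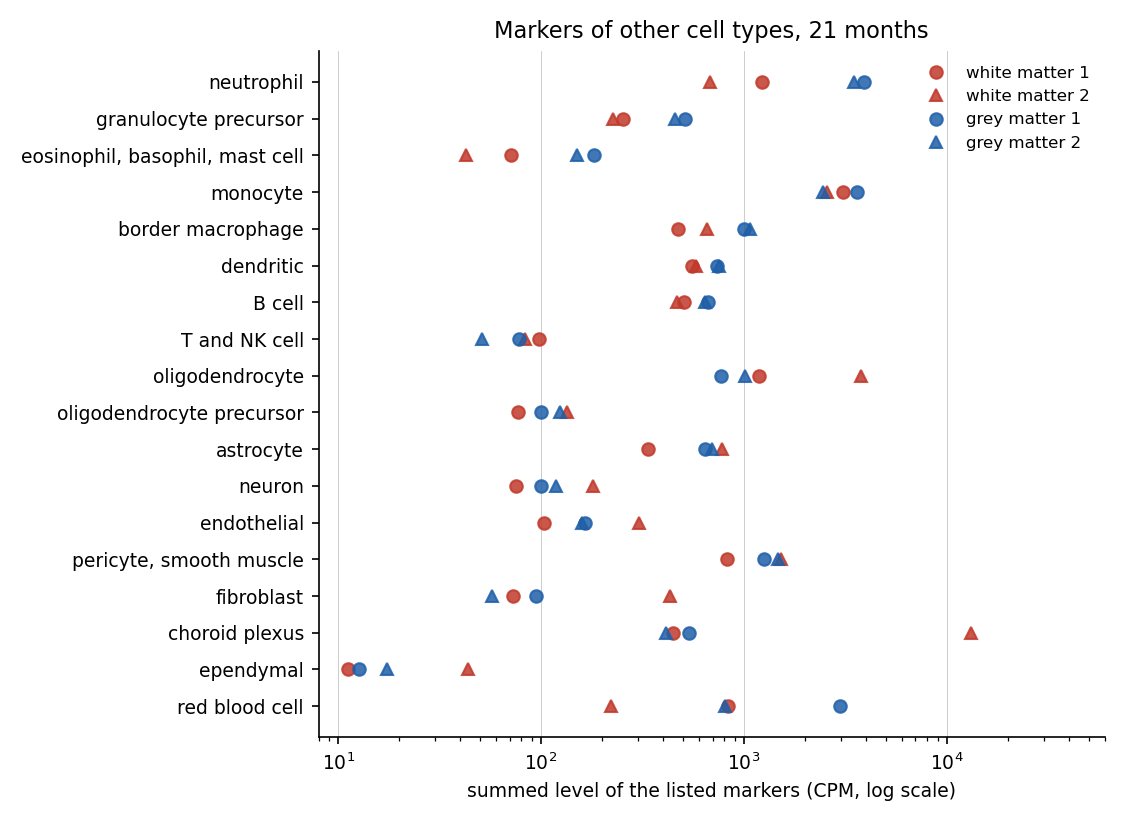
Summed CPM (log scale) of the markers of each non-microglial cell type in the 4 libraries at 21 months, 1 point a library, circles for the first and triangles for the second library of a group. Neutrophil, granulocyte precursor and border macrophage sums are higher in both grey matter libraries (blue), while the choroid plexus sum is high in the second white matter library alone (13206 CPM).

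Of the 14717 genes tested, 145 were higher in white matter (0.985%) and 87 were lower (0.591%), together 232 (1.58%). All 232 had groups that did not overlap, which by itself was common, since 20.4% of all genes tested had both white matter libraries above both grey matter libraries and 20.2% had them below. The median log2 fold change of all genes tested was 0.0066. The rises were mostly moderate and reached genes with many counts: their median log2 fold change was 1.51, 129 exceeded 2-fold and 15 exceeded 16-fold, and 60 of them averaged over 100 CPM in white matter. The falls were steeper and mostly in genes with few counts: their median size was 2.61 on the log2 scale, 60 of 87 exceeded 4-fold, and only 6 averaged over 100 CPM in grey matter. Together the genes that rose took 41556 CPM in white and 16002 CPM in grey matter, and those that fell took 1366 and 4351 CPM. Of the rises, 128 lay outside the lists of disease-associated, neutrophil, granulocyte precursor and monocyte genes, as did 62 of the falls. The calls depended on single libraries, and fits that leave one out have 1 residual degree of freedom. Without the first grey matter library 49 genes were called higher and 35 lower, without the second grey matter library 69 and 75, without the first white matter library 326 and 131, and without the second 266 and 149. A total of 57 genes, 38 higher and 19 lower, were called in all 4 of those fits, and edgeR called no gene when the spread was estimated from all 8 libraries (381 at an unadjusted p under 0.05).

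**Figure D2:**
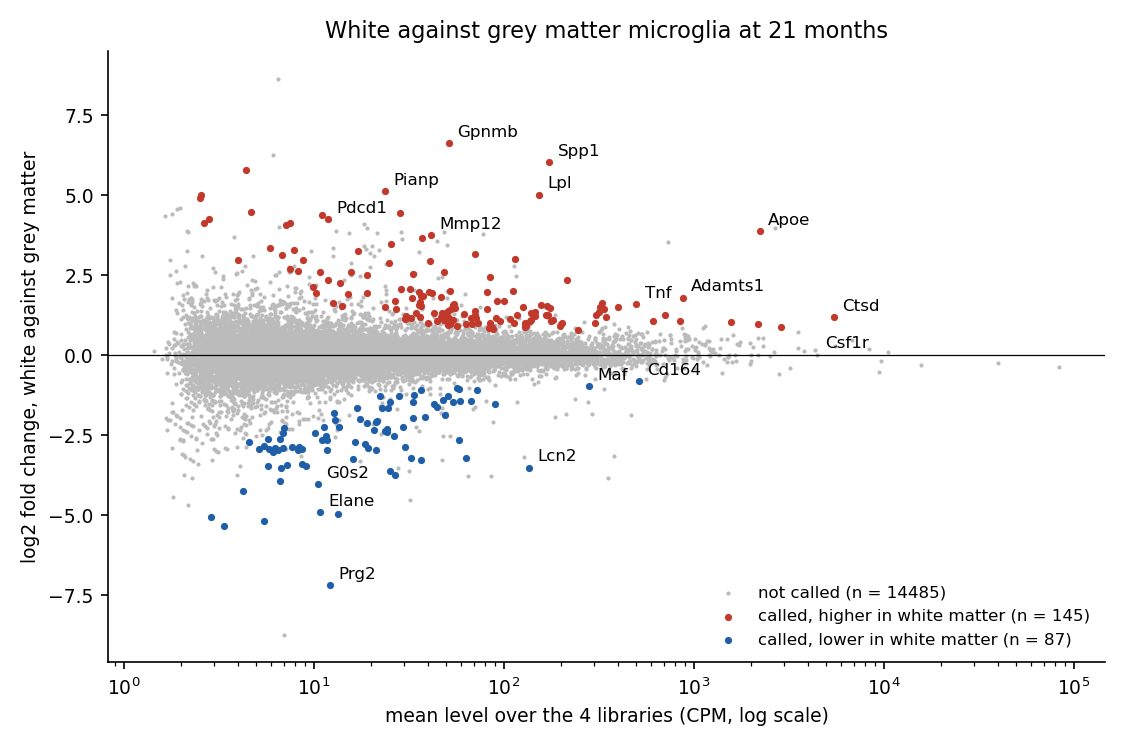
Each point is 1 of 14717 genes, placed by its mean level over the 4 libraries (CPM, log scale) and its log2 fold change of white against grey matter; red points were called higher (145) and blue points lower (87). The largest rises, Gpnmb and Spp1, and the rises at high levels such as Apoe and Ctsd stand against falls that sit mostly at low levels.

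Predicted gene models aside, the extremes of the comparison were 2 genes of the macrophage response to lipid and tissue damage at one end and 3 genes of granule proteins at the other. Gpnmb, a transmembrane glycoprotein of macrophages loaded with lipid, was measured at 81.4 and 123 CPM in the white and 1.75 and 0 CPM in the grey matter libraries (log2 fold change 6.62 ± 0.64 (SE), edgeR adjusted p = 0.0118). Spp1, the secreted matrix protein osteopontin, was measured at 383 and 303 CPM in the white and 5.48 and 4.88 CPM in the grey matter libraries (log2 fold change 6.03 ± 0.23 (SE), edgeR adjusted p = 1.6e-06). For both, each white matter library exceeded each grey matter library many times over. Prg2, the major basic protein of eosinophil granules, was measured at 0 and 0.269 CPM in the white and 18.2 and 30.2 CPM in the grey matter libraries (log2 fold change -7.19 ± 0.71 (SE), edgeR adjusted p = 0.00105). Elane, the neutrophil elastase made in granulocyte precursors, was measured at 0.781 and 0.538 CPM in the white and 13.2 and 28.9 CPM in the grey matter libraries (log2 fold change -4.91 ± 0.60 (SE), edgeR adjusted p = 0.00323), and Fcnb, a ficolin of the same precursors, at 0.52 and 0 CPM in the white and 13.2 and 8.23 CPM in the grey matter libraries (log2 fold change -5.19 ± 0.81 (SE), edgeR adjusted p = 0.0109). White matter held 1 count of Prg2 and 2 of Fcnb in all, so the fitted values rest on how zeros are treated. From the counts alone Prg2 was 175 times higher in grey matter, with an exact 95% interval from 31.1 to 6966, and Fcnb 41.9 times, from 11.3 to 352, intervals that cover counting error only. Without the first grey matter library the edgeR adjusted p of Fcnb was 0.229.

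The reference promoters of the genes at both ends that have an entry in the sequence table are shown (RefSeq, GRCm38.p6). They run from 250 bases before to 50 after the start site, gene strand 5′ to 3′, with motif matches on either strand in capitals. Gpnmb, at chr6:49036268-49036567 on the plus strand, holds an AP-1 match, the motif of Fos and Jun proteins, spelt TGANTCA. Spp1, at chr5:104434861-104435160 on the plus strand, and Elane, at chr10:79886062-79886361 on the plus strand, each hold a PU.1 match, the motif of the main transcription factor of the myeloid lineage, spelt GAGGAAGT. Fcnb, at chr2:28084829-28085128 on the minus strand, holds 2 C/EBP matches, the motif of factors that drive granule genes, spelt TTGCNNAA.
Gpnmb: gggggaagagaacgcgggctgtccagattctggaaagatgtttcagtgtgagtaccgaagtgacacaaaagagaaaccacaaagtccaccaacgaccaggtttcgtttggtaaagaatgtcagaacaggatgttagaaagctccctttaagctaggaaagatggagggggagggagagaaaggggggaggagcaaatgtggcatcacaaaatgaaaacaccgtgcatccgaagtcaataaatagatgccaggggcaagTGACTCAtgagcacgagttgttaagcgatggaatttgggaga
Spp1: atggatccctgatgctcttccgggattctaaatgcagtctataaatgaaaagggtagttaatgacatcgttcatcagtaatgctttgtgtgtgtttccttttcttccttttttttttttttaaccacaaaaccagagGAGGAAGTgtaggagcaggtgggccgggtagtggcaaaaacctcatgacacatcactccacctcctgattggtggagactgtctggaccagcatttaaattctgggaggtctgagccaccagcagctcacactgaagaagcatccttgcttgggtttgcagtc
Elane: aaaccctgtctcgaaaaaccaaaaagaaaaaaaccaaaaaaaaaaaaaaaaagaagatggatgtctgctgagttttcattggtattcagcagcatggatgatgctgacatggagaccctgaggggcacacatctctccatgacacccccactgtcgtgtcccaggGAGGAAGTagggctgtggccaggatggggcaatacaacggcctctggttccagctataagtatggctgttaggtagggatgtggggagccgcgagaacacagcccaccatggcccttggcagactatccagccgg
Fcnb: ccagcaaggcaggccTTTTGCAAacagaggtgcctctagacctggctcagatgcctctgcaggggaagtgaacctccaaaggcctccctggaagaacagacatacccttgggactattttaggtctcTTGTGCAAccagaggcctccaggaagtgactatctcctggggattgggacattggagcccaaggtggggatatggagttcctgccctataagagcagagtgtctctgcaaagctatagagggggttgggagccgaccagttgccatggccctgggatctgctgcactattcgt
Over all promoters, matched by gene symbol for 9269 of the 14717 genes tested, for 106 of the 145 that rose and for 59 of the 87 that fell, the share with a match differed by motif. AP-1 matched 4.68% of all promoters, 10.4% of those of genes that rose and 8.47% of those of genes that fell. C/EBP matched 8.06%, 5.66% and 16.9%, PU.1 matched 3.52%, 7.55% and 8.47%, and the M-box TCATGTG, bound by MITF and TFEB, matched 2.1%, 5.66% and 3.39%. The E-box CACGTG, which shares letters with the M-box, matched 10.3%, 8.49% and 10.2%. The GATA motif AGATAA matched 6.2%, 9.43% and 8.47%, and the hypoxia response motif ACGTG, which lies inside the E-box, 25.8%, 21.7% and 27.1%. These are counts of letters, with no test, and a match is not a binding site.

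Genes that build, cut or anchor to the extracellular matrix moved in both directions. Of 28 matrix and protease genes tested, 6 rose and 3 fell (median log2 fold change 0.24, and 0.020 without the second white matter library). Over all genes tested 0.985% rose and 0.591% fell, the shares to set beside this list and the integrin list below. Lox, which cross-links collagen and elastin, stood at 26.5 and 15.9 CPM in the white and 1.53 and 0.305 CPM in the grey matter libraries (log2 fold change 4.37 ± 0.57 (SE), edgeR adjusted p = 0.00543). Mmp12, the macrophage elastase, stood at 85.1 and 70.5 CPM in the white and 6.14 and 5.18 CPM in the grey matter libraries (log2 fold change 3.76 ± 0.25 (SE), edgeR adjusted p = 0.000103). Adamts1, a secreted protease that cleaves proteoglycans, had the largest rise in CPM outside the known lists, at 1607 and 1127 CPM in the white and 428 and 356 CPM in the grey matter libraries (log2 fold change 1.80 ± 0.21 (SE), edgeR adjusted p = 0.00245). All 3 were low in both grey matter libraries relative to both white matter libraries, and the first white matter library was the higher of the pair. Plau, the urokinase plasminogen activator, and Mmp14, a membrane-bound protease, also rose, by 1.71 and 1.01 on the log2 scale, as did Spp1. The members that fell were Mmp8 (-3.27) and Mmp9 (-2.87), proteases stored in neutrophil granules, and Vcan (-2.13), a proteoglycan that is also on the monocyte list. They moved with the neutrophil sum given above, whose part in their fall was not tested. Outside the list, Postn, the matrix protein periostin, stood at 49.7 and 44.7 CPM in the white and 4.17 and 4.27 CPM in the grey matter libraries (log2 fold change 3.48 ± 0.29 (SE), edgeR adjusted p = 0.000454), and Fam20c, a kinase of secreted proteins that include osteopontin, at 52.3 and 35.8 CPM in the white and 4.82 and 7.31 CPM in the grey matter libraries (log2 fold change 2.88 ± 0.33 (SE), edgeR adjusted p = 0.0023). Among 25 integrin and adhesion genes, 4 rose and 1 fell. Itga5, the fibronectin receptor subunit, rose by 1.37, Vcam1, a ligand of leukocyte integrins, by 1.14, the tetraspanin Cd9 by 1.30 and Itgax, encoding CD11c, by 3.003. Itgal, the leukocyte integrin subunit LFA-1 alpha, changed by -1.54. Lox, Mmp12, Adamts1, Postn and Fam20c kept the call without any 1 of the 4 libraries. Plau, Mmp14, Itga5, Vcam1, Cd9 and Itgal lost it without the first grey matter library (edgeR adjusted p = 0.204 to 0.391). Plau, Mmp14, Vcan, Itga5 and Cd9 lost it without the second grey matter library (edgeR adjusted p = 0.107 to 0.337). Mmp14 and Itga5 lost it without the first white matter library (edgeR adjusted p = 0.0525 to 0.112).

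**Figure D3:**
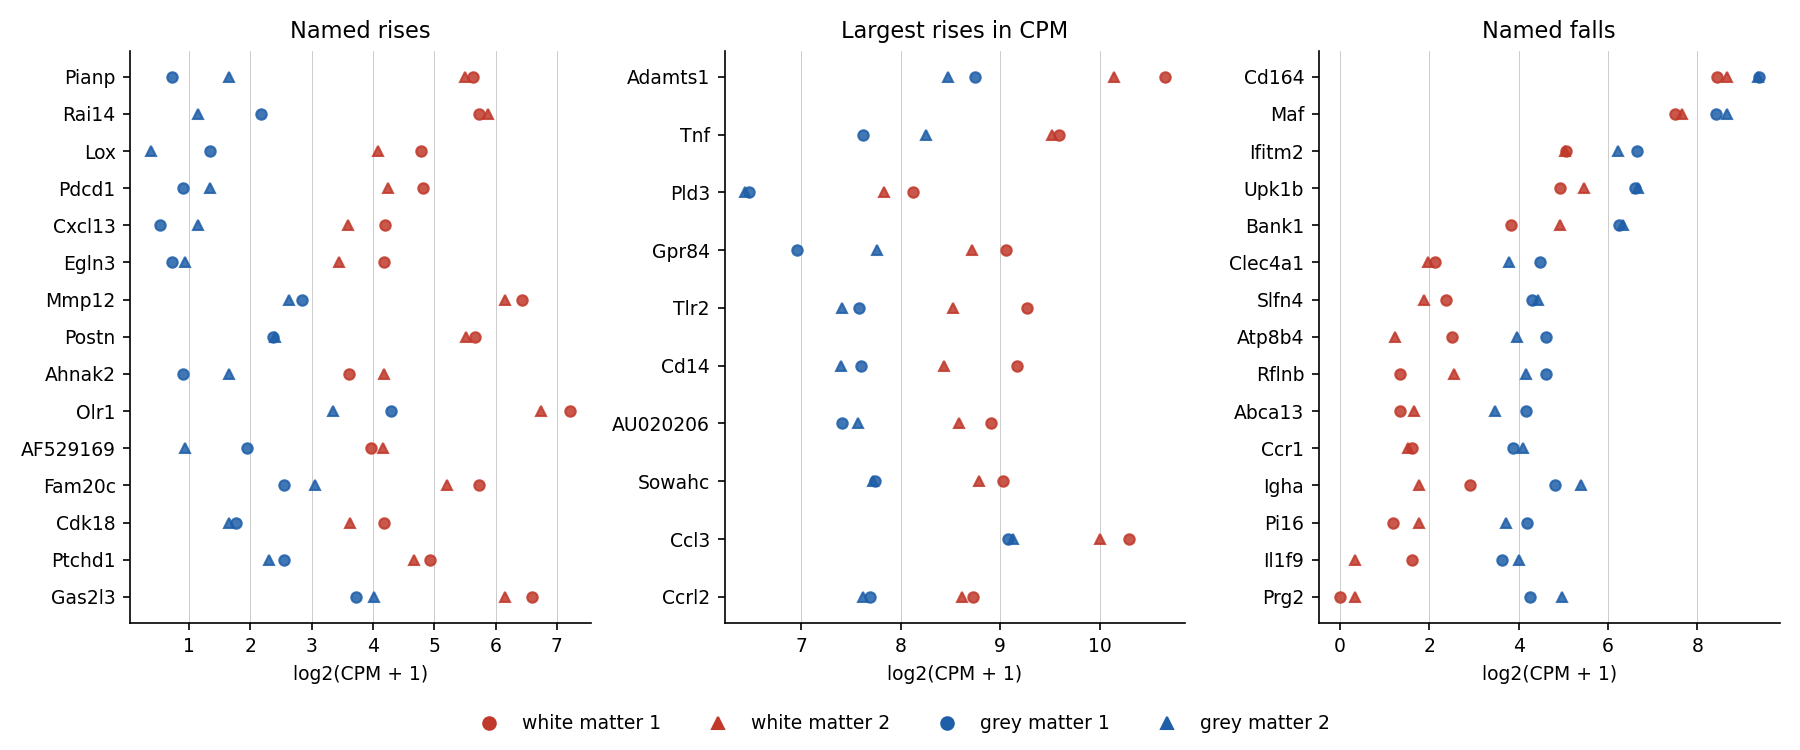
Level of each named gene in each of the 4 libraries, as log2(CPM + 1), for the 15 largest rises, the 10 largest rises in CPM and the 15 named falls outside the known lists; red is white matter, blue grey matter, circles the first and triangles the second library. In every gene drawn both red points lie on the same side of both blue points, and the first white matter library is the higher of the 2 for all 10 genes in the middle panel.

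Of 32 genes of motor proteins and the cytoskeleton tested, 7 rose and 1 fell, against 0.985% and 0.591% of all genes tested. The median was 0.38, and from 0.34 to 0.45 when 1 library was left out. Rai14, an actin-bundling ankyrin repeat protein, stood at 52.0 and 57.6 CPM in the white and 3.51 and 1.22 CPM in the grey matter libraries (log2 fold change 4.44 ± 0.38 (SE), edgeR adjusted p = 0.000457). Gas2l3, which links actin filaments to microtubules, stood at 96.0 and 70.0 CPM in the white and 12.3 and 15.2 CPM in the grey matter libraries (log2 fold change 2.60 ± 0.24 (SE), edgeR adjusted p = 0.000787). Myo5a, a motor that carries organelles along actin, stood at 198 and 163 CPM in the white and 47.4 and 41.7 CPM in the grey matter libraries (log2 fold change 2.01 ± 0.18 (SE), edgeR adjusted p = 0.000563). For these 3 genes both white matter libraries lay well above both grey matter libraries. Myo1e, a membrane-linked myosin of phagocytic cups, rose by 1.97, Capg, a filament-capping protein, by 1.84, Nes, the intermediate filament nestin, by 1.66, and Anxa5, which binds exposed phosphatidylserine, by 1.16. The member that fell was Anxa1 (4.68 and 2.69 against 52.8 and 46.9 CPM, white against grey), an annexin abundant in neutrophils and monocytes. Rai14, Gas2l3, Myo5a, Myo1e, Capg and Anxa1 kept the call without any 1 of the 4 libraries. Anxa5 lost it without the first grey matter library (edgeR adjusted p = 0.172). Nes and Anxa5 lost it without the second grey matter library (edgeR adjusted p = 0.0673 to 0.114).

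Of 25 genes of lipid uptake, storage and efflux, 5 rose and none fell (median 0.61). The 5 were Lpl (5.02), the lipase that frees fatty acids from lipoproteins, Apoe (3.87), the main apolipoprotein of the brain, and Olr1, Nceh1 and Lipa. Olr1, the receptor LOX-1 for oxidised lipoprotein, stood at 148 and 107 CPM in the white and 18.6 and 9.14 CPM in the grey matter libraries (log2 fold change 3.16 ± 0.33 (SE), edgeR adjusted p = 0.00468). Nceh1, which hydrolyses cholesterol esters at the endoplasmic reticulum, stood at 75.2 and 58.1 CPM in the white and 16.4 and 18.3 CPM in the grey matter libraries (log2 fold change 1.94 ± 0.23 (SE), edgeR adjusted p = 0.00257). Lipa, which does so in the lysosome, stood at 186 and 156 CPM in the white and 82.9 and 90.8 CPM in the grey matter libraries (log2 fold change 0.98 ± 0.17 (SE), edgeR adjusted p = 0.0183). Both esterases were thus higher in both white matter libraries, and Olr1 differed most. Apoc1 (4.61, adjusted p = 0.0713), Ch25h (3.69, 0.0679) and Fabp5 (2.51, 0.0713) had large differences that edgeR did not call. Over all genes tested 0.985% were called higher, which is the share to set beside this list and the next 3. Of 20 genes of cholesterol synthesis, edgeR called 1, the feedback regulator Insig1 (1.20), while the list had a median of 0.58. In the lysosome, 3 of 41 hydrolases rose (Ctsb, Ctsd and Lipa, median 0.34) and 1 of 26 membrane and proton pump genes, Atp6v0d2, a pump subunit of macrophages and osteoclasts (5.46 and 5.38 against 0.438 and 0 CPM). Grey matter held 2 counts of Atp6v0d2 in all, a ratio of 21.3 with an exact 95% interval from 5.52 to 182. Olr1 and Nceh1 kept the call without any 1 of the 4 libraries. Lipa, Insig1, Atp6v0d2, Ctsb and Ctsd lost it without the first grey matter library and without the second grey matter library (edgeR adjusted p = 0.0849 to 0.514). Atp6v0d2 lost it without the first white matter library and without the second white matter library (edgeR adjusted p = 0.137 to 0.162).

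Of 26 genes of glycolysis and of the response to low oxygen tested, 6 rose and none fell (median 0.41). The shares over all genes tested were 0.985% and 0.591%. Egln3, an oxygen-sensing prolyl hydroxylase that is itself induced by HIF, stood at 17.2 and 9.96 CPM in the white and 0.658 and 0.914 CPM in the grey matter libraries (log2 fold change 4.08 ± 0.58 (SE), edgeR adjusted p = 0.00741). Slc2a1, the glucose transporter GLUT1, stood at 307 and 237 CPM in the white and 137 and 136 CPM in the grey matter libraries (log2 fold change 0.997 ± 0.18 (SE), edgeR adjusted p = 0.019). Vegfa, the vascular growth factor, stood at 73.6 and 60.8 CPM in the white and 30.0 and 24.1 CPM in the grey matter libraries (log2 fold change 1.31 ± 0.22 (SE), edgeR adjusted p = 0.0144). Egln3 was close to absent in grey matter, and for each of the 3 both grey matter libraries lay below both white matter libraries. The glycolytic enzymes Tpi1, Aldoa and Pkm rose by 1.23, 0.88 and 0.87 on the log2 scale. The other 20 members lay between -0.91 (Ankrd37) and 1.12 (Mif) and were not called, Hif1a among them (0.63, adjusted p = 0.133). A second glucose transporter, Slc2a3, moved the other way (-1.61, adjusted p = 0.00923). Egln3, Slc2a1, Vegfa, Tpi1, Aldoa, Pkm and Slc2a3 lost the call without the first grey matter library (edgeR adjusted p = 0.0681 to 0.46). Slc2a1, Vegfa, Tpi1, Aldoa and Pkm lost it without the second grey matter library (edgeR adjusted p = 0.066 to 0.171). Tpi1 and Aldoa lost it without the first white matter library (edgeR adjusted p = 0.0717 to 0.0758). Tpi1 lost it without the second white matter library (edgeR adjusted p = 0.0574). None of the 6 rises held in all 4 of these fits.

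Of 16 chemokines tested 5 rose and none fell (median 0.71), and of 27 cytokines and growth factors 5 rose and none fell (median 0.81). The shares over all genes tested were 0.985% higher and 0.591% lower. Cxcl13, the attractant of B cells, stood at 17.4 and 11.0 CPM in the white and 0.438 and 1.22 CPM in the grey matter libraries (log2 fold change 4.14 ± 0.59 (SE), edgeR adjusted p = 0.00747). Ccl3, an abundant microglial chemokine, stood at 1258 and 1022 CPM in the white and 539 and 559 CPM in the grey matter libraries (log2 fold change 1.05 ± 0.17 (SE), edgeR adjusted p = 0.0141). Tnf, the inflammatory cytokine, stood at 769 and 733 CPM in the white and 197 and 305 CPM in the grey matter libraries (log2 fold change 1.58 ± 0.21 (SE), edgeR adjusted p = 0.0066). Cxcl13 differed most in fold, and the first white matter library was the higher of the pair for all 3. Ccl4 rose by 1.11, Cxcl10 by 1.28 and Cxcl16 by 1.46. The growth factors Igf1 and Csf1, both on the disease-associated list, rose by 3.65 and 1.62, and Tnfsf8, the ligand of CD30, rose from 3.73 and 5.79 CPM in grey matter to 25.8 and 19.6 CPM in white matter (log2 fold change 2.27 ± 0.37 (SE), edgeR adjusted p = 0.0141). The interleukins Il1a (0.84, adjusted p = 0.0643) and Il1rn (2.02, 0.0916) were not called. Igf1 and Csf1 kept the call without any 1 of the 4 libraries. Cxcl13, Ccl3, Ccl4, Cxcl10, Cxcl16, Tnf and Tnfsf8 lost it without the first grey matter library (edgeR adjusted p = 0.0707 to 0.361). Ccl3, Ccl4 and Cxcl16 lost it without the second grey matter library (edgeR adjusted p = 0.0755 to 0.174).

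Tlr2, the receptor for bacterial lipoproteins, and Cd14, its co-receptor, were the 2 of 26 Toll-like and inflammasome genes to rise. None fell (median 0.050), and 0.985% of all genes tested rose. Tlr2 stood at 616 and 367 CPM in the white and 191 and 169.7 CPM in the grey matter libraries (log2 fold change 1.45 ± 0.24 (SE), edgeR adjusted p = 0.0237), and Cd14 at 573 and 345 CPM in the white and 193 and 168 CPM in the grey matter libraries (log2 fold change 1.35 ± 0.24 (SE), edgeR adjusted p = 0.0298). Gpr84, a receptor for medium-chain fatty acids that marks activated microglia, stood at 532 and 421 CPM in the white and 123 and 216 CPM in the grey matter libraries (log2 fold change 1.49 ± 0.27 (SE), edgeR adjusted p = 0.0455). Each of these was lower in both grey matter libraries. Ccrl2, an atypical chemokine receptor, rose by 1.02. Among 21 genes of NF-kB feedback the 3 that rose were Bcl2a1a, Bcl2a1b and Bcl2a1d (2.05, 1.003 and 1.99), survival genes of the BCL2 family so alike in sequence that reads may be split between them, so they count as uncertain. Tlr2, Cd14, Gpr84, Ccrl2, Bcl2a1a, Bcl2a1b and Bcl2a1d lost the call without the first grey matter library (edgeR adjusted p = 0.0735 to 0.435). Tlr2, Cd14, Ccrl2 and Bcl2a1b lost it without the second grey matter library (edgeR adjusted p = 0.122 to 0.241). Gpr84 and Bcl2a1b lost it without the first white matter library (edgeR adjusted p = 0.0687 to 0.0694).

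Of 17 immune checkpoint genes tested, 3 were called, all higher, against 0.985% of all genes tested. The median was 0.10, and from -0.083 to 0.26 with 1 library left out. A log2 fold change above 0 was found for 12 of the 17 and below 0 for 5. Pdcd1, encoding PD-1, stood at 27.1 and 18.0 CPM in the white and 0.877 and 1.52 CPM in the grey matter libraries (log2 fold change 4.24 ± 0.47 (SE), edgeR adjusted p = 0.00182). Cd274, encoding its ligand PD-L1, stood at 144 and 138 CPM in the white and 46.9 and 39.0 CPM in the grey matter libraries (log2 fold change 1.71 ± 0.18 (SE), edgeR adjusted p = 0.00131). Cd22, a sialic acid receptor known in B cells and aged microglia, stood at 76.5 and 66.2 CPM in the white and 20.8 and 36.6 CPM in the grey matter libraries (log2 fold change 1.33 ± 0.27 (SE), edgeR adjusted p = 0.0415). Pdcd1 was nearly absent from grey matter, and each gene was higher in both white matter libraries. Pdcd1 is also a T cell gene, and Cd3e, a subunit of the T cell receptor that was too scarce to be tested, stood at 2.60 and 3.23 CPM in the white and 0.219 and 0.305 CPM in the grey matter libraries, while the 9 T and NK cell markers tested other than Pdcd1 summed to 56.2 and 53.0 CPM in the white and 58.8 and 42.4 CPM in the grey matter libraries, which overlap. The part of T cells in the Pdcd1 result was not tested. The B cell gene Cd79a stood at 1.04 and 0.269 CPM in the white and 4.17 and 0.305 CPM in the grey matter libraries, highest in the first grey matter library. Pdcd1 and Cd274 kept the call without any 1 of the 4 libraries. Cd22 lost it without the first grey matter library and without the first white matter library (edgeR adjusted p = 0.0543 to 0.319).

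Where the higher group averaged at least 50 counts, the largest rise outside the known lists was Pianp, a membrane protein that binds the inhibitory receptor PILR alpha, at 48.4 and 44.4 CPM in the white and 0.658 and 2.13 CPM in the grey matter libraries (log2 fold change 5.12 ± 0.43 (SE), edgeR adjusted p = 0.000454). Ptchd1, a protein of the Patched family, stood at 29.7 and 24.5 CPM in the white and 4.82 and 3.96 CPM in the grey matter libraries (log2 fold change 2.60 ± 0.34 (SE), edgeR adjusted p = 0.00468). Pld3, an exonuclease of the lysosome, stood at 278 and 228 CPM in the white and 87.9 and 85.9 CPM in the grey matter libraries (log2 fold change 1.54 ± 0.17 (SE), edgeR adjusted p = 0.00182). All 3 were higher in both white matter libraries, and Pianp was close to absent in grey matter. Ahnak2, a giant scaffold protein, rose by 3.28, the kinase gene Cdk18 by 2.62, AF529169 by 2.97, AU020206 by 1.26 and Sowahc by 1.18. Pianp, Ptchd1 and Pld3 kept the call without any 1 of the 4 libraries. Ahnak2, Cdk18, AU020206 and Sowahc lost it without the first grey matter library (edgeR adjusted p = 0.112 to 0.148). Cdk18, AF529169 and Sowahc lost it without the second grey matter library (edgeR adjusted p = 0.055 to 0.0744). Cdk18 lost it without the first white matter library (edgeR adjusted p = 0.0639).

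The lists of microglial state frame these genes. Of 38 disease-associated genes tested, 17 rose and none fell, against 0.985% and 0.591% of all genes tested. Their median was 1.03, against 0.0066 for all genes. Among the 17 were Ank, a phosphate and citrate transporter (1.58), Lgals3bp, a secreted galectin ligand (1.51), and Fth1, the heavy chain of ferritin (1.04). The list was drawn up from microglia of this kind and chosen with these results known, so its direction is no independent evidence. Lgals3bp kept the call without any 1 of the 4 libraries. Ank lost it without the first grey matter library and without the second grey matter library (edgeR adjusted p = 0.155 to 0.162). Of 29 homeostatic genes, which mark resting microglia, none rose and 2 fell, against 0.591% of all genes tested that fell. Their median was -0.29, and 21 had a log2 fold change below 0. Both white matter libraries lay below both grey matter libraries for 16 of the 29, against 20.2% of all genes tested, and DESeq2 called 5. The members that fell were Upk1b, a tetraspanin, at 29.4 and 43.3 CPM in the white and 96.9 and 100.3 CPM in the grey matter libraries (log2 fold change -1.44 ± 0.21 (SE), edgeR adjusted p = 0.00844), and Crybb1, a crystallin, at 19.5 and 33.4 CPM in the white and 63.8 and 75.9 CPM in the grey matter libraries (log2 fold change -1.40 ± 0.26 (SE), edgeR adjusted p = 0.0284). Among those not called by edgeR, the log2 fold changes of members with a high mean CPM included Cst3 (0.28), Sparc (0.087), Csf1r (0.018) and Serinc3 (-0.0038). P2ry12 stood at 1081 and 1183 CPM in the white and 1621 and 1746 CPM in the grey matter libraries (log2 fold change -0.57 ± 0.17 (SE), edgeR adjusted p = 0.159), lower in both white matter libraries though not called, as were Sall1 (-0.59, adjusted p = 0.146), Siglech (-0.57, 0.139) and Tmem119 (-0.40, 0.415). Both called members lost the call without the first grey matter library (adjusted p = 0.0701 for Upk1b and 0.162 for Crybb1), and Crybb1 also without the second (adjusted p = 0.183).

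**Figure D4:**
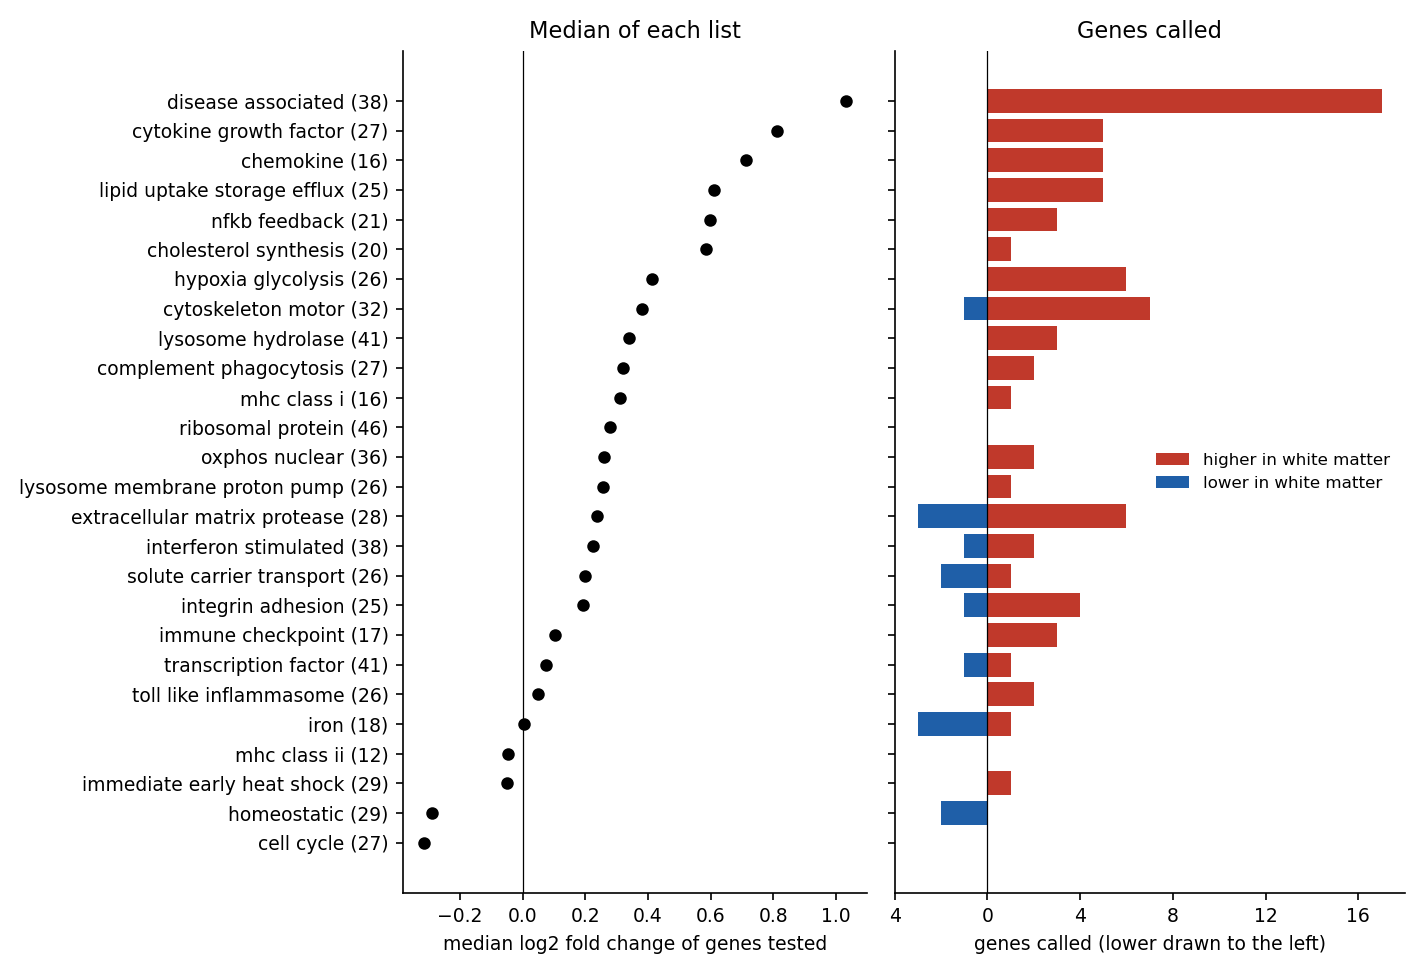
For each list of microglial states and pathways, with the number tested in brackets, the median log2 fold change of white against grey matter (left) and the number of genes called higher (red) and lower (blue, drawn to the left of 0) at an edgeR adjusted p under 0.05 (right). Of the lists drawn, the disease-associated list has the highest median and 17 calls. The cytoskeleton list has 7 higher and 1 lower, the matrix list 6 and 3, and the hypoxia and glycolysis list 6 and 0. The cytokine, chemokine and lipid lists have 5 each, and the ribosomal protein, MHC class II and cell cycle lists none.

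Of 41 transcription factors tested, 1 rose and 1 fell, against 0.985% and 0.591% of all genes (median 0.075, from -0.11 to 0.23 with 1 library left out). Id2, an inhibitor of basic helix-loop-helix factors, stood at 106 and 63.0 CPM in the white and 25.4 and 15.8 CPM in the grey matter libraries (log2 fold change 2.02 ± 0.32 (SE), edgeR adjusted p = 0.0188). Maf, which maintains macrophage identity, stood at 179.8 and 201 CPM in the white and 340.3 and 402 CPM in the grey matter libraries (log2 fold change -0.96 ± 0.17 (SE), edgeR adjusted p = 0.0183). The other 39 lay between -0.59 and 1.81, and Mitf, the regulator of Gpnmb and of lysosomal genes, was not called (0.77, adjusted p = 0.11). Maf is also one of 14 border macrophage markers tested, 2 of which fell, the other being F13a1. The 16 border macrophage markers in the table summed to 475 and 657 CPM in the white and 999.5 and 1067 CPM in the grey matter libraries. Whether the fall of Maf follows microglia or border macrophages was not tested. F13a1 kept the call without any 1 of the 4 libraries. Id2 and Maf lost it without the first grey matter library and without the second grey matter library (edgeR adjusted p = 0.0581 to 0.208).

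Counts on the other lists were small. Over all genes tested 0.985% were called higher and 0.591% lower, together 1.58%, and 0 calls in lists of this size is near that share. edgeR called 0 of 46 ribosomal protein genes (median 0.28, 40 above 0, 8 at an unadjusted p under 0.05, 0 by DESeq2). Both white matter libraries lay above both grey matter libraries for 18 of the 46, against 20.4% of all genes tested. edgeR also called 0 of 12 MHC class II genes (median -0.045, 2 at an unadjusted p under 0.05, 1 by DESeq2) and 0 of 27 cell cycle genes (median -0.31, 4 at an unadjusted p under 0.05, 0 by DESeq2). Over all 14717 genes tested, 1675 had an edgeR unadjusted p under 0.05. Of 38 interferon-stimulated genes, 2 rose (Cxcl10 and Lgals3bp) and 1 fell, Ifitm2, a membrane protein that restricts viral entry, at 32.3 and 32.0 CPM in the white and 98.9 and 73.7 CPM in the grey matter libraries (log2 fold change -1.43 ± 0.21 (SE), edgeR adjusted p = 0.00758). Of 27 complement and phagocytosis genes, 2 rose (Itgax and the receptor kinase Axl, 2.36). Among 16 MHC class I genes B2m rose (0.87), and among 29 immediate early and heat shock genes only the phosphatase Dusp2 was called (1.49). Of 36 nuclear genes of oxidative phosphorylation the 2 that rose encode isoforms of the same cytochrome c oxidase subunit, Cox6a1 (0.97) and Cox6a2 (3.14), the latter known as the muscle form. Iron genes moved in both directions, with 1 of 18 higher, Fth1, and 3 lower. The ones that fell were Slc40a1, the iron exporter ferroportin (-1.04), and Lcn2 (-3.52) and Steap4 (-2.92), both known from granulocytes and inflammation. Axl kept the call without any 1 of the 4 libraries. Ifitm2, B2m, Dusp2, Cox6a1, Fth1, Slc40a1, Lcn2 and Steap4 lost it without the first grey matter library (edgeR adjusted p = 0.0558 to 0.582). B2m, Dusp2, Cox6a1, Cox6a2, Fth1, Slc40a1, Lcn2 and Steap4 lost it without the second grey matter library (edgeR adjusted p = 0.0548 to 0.404). B2m, Dusp2 and Fth1 lost it without the first white matter library (edgeR adjusted p = 0.0693 to 0.0738). Cox6a1 and Steap4 lost it without the second white matter library (edgeR adjusted p = 0.064 to 0.0789).

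The genes lower in white matter were led by genes of blood granulocytes and monocytes. Of 26 neutrophil genes tested, 12 fell and none rose (median -3.27), against 0.591% of all genes tested that fell. Of 24 monocyte genes 11 fell (median -2.14), with Cd177 counted on both lists. The summed monocyte markers nevertheless overlapped between the tissues (3067 and 2572 CPM in the white and 3606 and 2447 CPM in the grey matter libraries). Only 9 of 18 granulocyte precursor genes and 6 of 19 eosinophil, basophil and mast cell genes had counts enough to be tested. Of the 9, 3 fell (median -3.18), and of the 6, 1 fell, Prg2. Members near absent from white matter, such as Elane, Fcnb and Prg2, passed the filter on low counts through grey matter. The direction of these 2 lists is therefore no evidence. Of the other granule genes of eosinophils, Epx, the eosinophil peroxidase, stood at 0 and 0.269 CPM in the white and 2.19 and 5.79 CPM in the grey matter libraries. Prg3 stood at 0 and 0 CPM in the white and 0.219 and 0.305 CPM in the grey matter libraries. Epx and Prg3 were too scarce to be tested. Mpo, the myeloperoxidase of granulocyte precursors, stood at 4.68 and 0.538 CPM in the white and 42.3 and 81.1 CPM in the grey matter libraries and was not called (log2 fold change -4.52 ± 0.83 (SE), edgeR adjusted p = 0.145). G0s2, an inhibitor of lipolysis in neutrophils, stood at 1.04 and 1.35 CPM in the white and 20.6 and 19.2 CPM in the grey matter libraries (log2 fold change -4.03 ± 0.44 (SE), edgeR adjusted p = 0.00168), and Lrg1, a granule glycoprotein, at 0.52 and 1.08 CPM in the white and 10.5 and 14.6 CPM in the grey matter libraries (log2 fold change -3.92 ± 0.58 (SE), edgeR adjusted p = 0.00767). All were low in both white matter libraries and highest in one or other grey matter library. Of the 10 largest falls outside these lists, several are also known from granulocytes or monocytes. Il1f9, an epidermal and neutrophil cytokine of the interleukin 1 family, stood at 2.08 and 0.269 CPM in the white and 11.4 and 15.2 CPM in the grey matter libraries (log2 fold change -3.45 ± 0.65 (SE), edgeR adjusted p = 0.0284). Ccr1, a chemokine receptor of blood myeloid cells, stood at 2.08 and 1.88 CPM in the white and 13.6 and 16.2 CPM in the grey matter libraries (log2 fold change -2.88 ± 0.44 (SE), edgeR adjusted p = 0.00967). Clec4a1 (-2.43), a lectin receptor of monocytes, Slfn4 (-2.51), a myeloid schlafen gene, Atp8b4 (-2.65), a phospholipid flippase, Abca13 (-2.86), a lipid transporter, Pi16 (-2.98) and Rflnb (-2.66) completed the group of low-level genes. Igha, the heavy chain of immunoglobulin A and a plasma cell product, stood at 6.51 and 2.42 CPM in the white and 27.2 and 41.1 CPM in the grey matter libraries (log2 fold change -2.92 ± 0.45 (SE), edgeR adjusted p = 0.0127), and the light chain Igkc, not called, at 37.0 and 30.4 CPM in the white and 190.3 and 94.5 CPM in the grey matter libraries (log2 fold change -2.08 ± 0.35 (SE), edgeR adjusted p = 0.0551). The summed neutrophil markers given above moved the same way as all of these, and their part in the falls outside the list was not tested. Lrg1 and G0s2 kept the call without any 1 of the 4 libraries. Il1f9, Ccr1, Clec4a1, Slfn4, Atp8b4, Abca13, Pi16, Rflnb and Igha lost it without the first grey matter library (edgeR adjusted p = 0.0513 to 0.385). Il1f9, Atp8b4, Rflnb and Igha lost it without the second grey matter library (edgeR adjusted p = 0.0613 to 0.185).

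Outside the lists of disease-associated, neutrophil, granulocyte precursor and monocyte genes, the falls with the largest change in CPM were in Cd164, Maf, Ifitm2, Upk1b and Bank1. Cd164, a sialomucin of the endolysosome and cell surface, stood at 344 and 402 CPM in the white and 663 and 652 CPM in the grey matter libraries (log2 fold change -0.82 ± 0.16 (SE), edgeR adjusted p = 0.0363). Bank1, a signalling scaffold known in B cells, stood at 13.3 and 29.3 CPM in the white and 75.2 and 79.5 CPM in the grey matter libraries (log2 fold change -1.86 ± 0.33 (SE), edgeR adjusted p = 0.0368). Cd164 was the smallest fall to be called, and its groups were tight in both tissues. Bank1 fell further, with the first white matter library the lower of the pair. Cd164, Bank1, Ifitm2, Upk1b and Maf lost the call without the first grey matter library (edgeR adjusted p = 0.0701 to 0.343). Cd164, Bank1 and Maf lost it without the second grey matter library (edgeR adjusted p = 0.208 to 0.273). Cd164 lost it without the first white matter library (edgeR adjusted p = 0.068).

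Whether the pattern of old age was already present in young mice was examined in the 4-month libraries, scaled together with those at 21 months. The first white matter library at 4 months stood apart from the other 7, so the second library is given by itself. The first had 38.8% of its counts on 2 transcripts, CT010467.1 and AY036118, against 6.78% to 20.7% in the others. At 4 months oligodendrocyte markers summed to 82891 and 2941 CPM in the white and 1474 and 705 CPM in the grey matter libraries. Choroid plexus markers summed to 5466 and 7381 CPM in the white and 238 and 42.6 CPM in the grey matter libraries. The part of these other cells in the comparison at 4 months was not tested. The second white matter library lay above both 4-month grey matter libraries for 92 of the 145 genes that rose at 21 months (63.4%, against 30.5% of all genes tested). It lay below both for 80 of the 87 that fell (92.0%, against 32.8%). With both white matter libraries required to lie on that side, the counts were 29 of 145 and 71 of 87. The share of all genes tested that meets this stricter rule was not counted, and can be no higher than the 30.5% and 32.8% above. The rule also uses the first white matter library, which stood apart. Pianp stood at 0 and 1.25 CPM in the white and 0.174 and 0.366 CPM in the grey matter libraries at 4 months. Rai14 stood at 6.54 and 19.3 CPM in the white and 0.523 and 2.38 CPM in the grey matter libraries, and Spp1 at 2.54 and 21.8 CPM in the white and 2.79 and 1.83 CPM in the grey matter libraries. For these 3 the second white matter library was above both grey matter libraries, and the level was well below that of old white matter (means on the same scale 42.5, 50.2 and 314 CPM). Pdcd1 stood at 2.54 and 1.00 CPM in the white and 2.27 and 0.914 CPM in the grey matter libraries at 4 months, low in both tissues. Prg2, among the falls, stood at 0.727 and 0.251 CPM in the white and 1.40 and 3.84 CPM in the grey matter libraries. The change in difference between the ages was called by edgeR for 0 of 16237 genes (0%) with all 8 libraries, with 455 at an unadjusted p under 0.05 and 39 called by DESeq2, so edgeR showed no gene to differ more at one age than at the other.

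**Figure D5:**
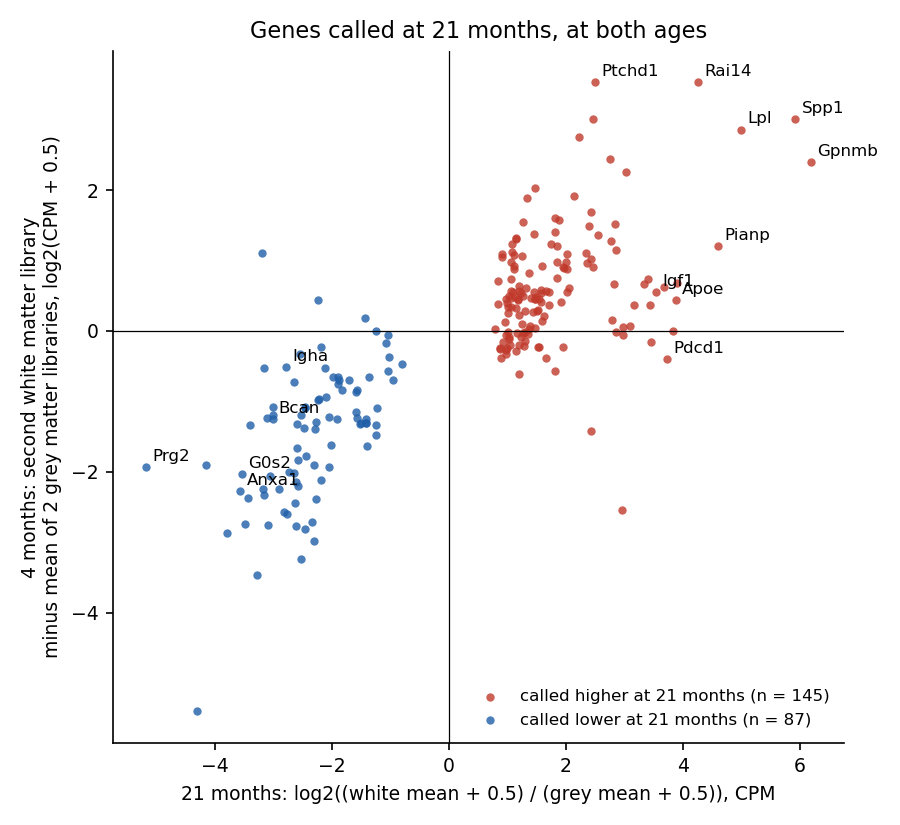
Each point is 1 of the 232 genes called at 21 months, with its log2 difference of white against grey matter at 21 months (horizontal) and the log2 difference of the second 4-month white matter library from the mean of the 2 grey matter libraries of that age (vertical). Blue points (lower at 21 months) lie mostly below 0 at 4 months as well, and 80 of 87 were below both grey matter libraries, whereas red points spread about and above 0, with 92 of 145 above both.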

How the data were processed

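Processed tables of the 8 libraries were used. The first, deposited by the authors, gives estimated counts per gene, of which 17.9% to 18.9% were not whole in the 4 libraries at 21 months; they were rounded. The second, a deposited signal table of 18448 genes, holds the rounded counts times 1 factor per library, and was used for limma. Ion Proton reads of polyA RNA from CD11b-selected cells were sequenced, per the labels, and the submitters' processing notes name Partek and DESeq2. The genome build was not given in the sources used here. Coordinates are therefore printed for RefSeq promoters only. The 37 mitochondrial genes in the table held no counts.

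edgeR 4.0.16 (R 4.3.3) filtered genes with filterByExpr, scaled by TMM and fitted the 4 libraries at 21 months with robust quasi-likelihood tests, Benjamini-Hochberg adjusted over 14717 genes. The SE is the log2 fold change divided by the square root of F. An exact permutation test of 2 against 2 cannot go below a two-sided p of 0.333, so none was run. DESeq2 1.42.0, limma 3.58.1 (pseudocount 1), other scaling, no filter, a replicate block, all 8 libraries and each library left out were alternatives. The code was tested on simulated data.

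The members and the 44 gene lists were chosen with earlier results of these data known. Named are the 15 largest rises and 10 largest falls outside 4 lists (mean count at least 50), the 10 largest rises and 5 largest falls in CPM, at most 4 called genes per list, and 5 homeostatic genes not called, 1 of which is not reported here. Genes named beyond this rule were chosen after their values were seen.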

Additional observations from a re-analysis of the deposited data

How the results depend on the processing

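The 145 rises and 87 falls at 21 months became 193 and 112 with DESeq2, 144 and 88 with RLE scaling, 145 and 92 with limma and 134 and 86 without 2 transcripts that took 6.78% to 14.2% of the counts. They became 507 and 276 with no filter on low counts (29717 genes tested) and 0 and 0 with all 8 libraries. Leaving out 1 library gave 49 to 326 rises and 35 to 149 falls, with 47.9% to 71.3% of calls higher. All 232 called genes kept their sign in every one of these fits, and 206 kept the call with DESeq2, 230 with RLE scaling, 223 with limma, and 183, 206, 65 and 116 without the first and second white and the first and second grey matter library. The change between ages was called for 39 genes with DESeq2, and for 0 to 2422 genes with 1 library left out, the highest without the second 4-month white matter library. Among the genes not called, the log2 fold change changed sign with 1 library left out for Csf1r (-0.15 to 0.19), Sparc (-0.050 to 0.22) and Serinc3 (-0.095 to 0.070). Serinc3 was 0.016 with no filter and 0.0048 with all 8 libraries. The cause of these shifts was not tested. The same replicate number did not show shared deviations at 21 months (correlation 0.066 over 14717 genes), so the replicate block, which gave 318 rises and 204 falls, rests on a number alone there; at 4 months the correlation was 0.438, and the block gave 0 genes for the change between ages. With 2 libraries a group and 3273258 to 4545028 counts each, genes at a few CPM rest on few reads.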

Other observations

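The called genes described here are on none of the lists and were picked after their values were seen, with no list or test of the groups they belong to. St8sia6, which adds sialic acid, stood at 176 and 111 CPM in the white and 22.8 and 30.2 CPM in the grey matter libraries (log2 fold change 2.45 ± 0.26 (SE), edgeR adjusted p = 0.00245). Xylt1, which starts proteoglycan chains, stood at 87.7 and 78.0 CPM in the white and 32.4 and 22.2 CPM in the grey matter libraries (log2 fold change 1.59 ± 0.22 (SE), edgeR adjusted p = 0.00733). Chst2 and Chst11, which add sulfate to such chains, rose by 1.85 and 1.24, and Sdc4, a membrane proteoglycan, by 1.17. Both white matter libraries were above both grey matter libraries for all of them. Cacna1a, a voltage-gated calcium channel subunit, rose by 2.08, Kcna3, the potassium channel Kv1.3, by 1.92, and the chloride channel gene Clic4 by 1.35. Sh3pxd2b, a scaffold of podosomes, rose by 1.99, and the formins Fmn1 and Fmnl2, which extend actin filaments, by 1.46 and 0.82. St8sia6, Xylt1, Cacna1a and Sh3pxd2b kept the call without any 1 of the 4 libraries. Chst2, Chst11, Sdc4, Kcna3, Fmn1 and Fmnl2 lost it without the first grey matter library (edgeR adjusted p = 0.0768 to 0.286). Sdc4, Kcna3, Clic4 and Fmnl2 lost it without the second grey matter library (edgeR adjusted p = 0.0673 to 0.404). Kcna3 and Fmnl2 lost it without the first white matter library (edgeR adjusted p = 0.0577 to 0.0948).

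Among the falls, Bcan, the brain proteoglycan brevican, stood at 1.30 and 0.807 CPM in the white and 11.2 and 13.7 CPM in the grey matter libraries (log2 fold change -3.51 ± 0.53 (SE), edgeR adjusted p = 0.00901), with the call kept whichever library was left out. The semaphorins Sema4a and Sema4b changed by -1.46 and -1.93, the cadherin Cdh23 by -1.27, the collagen chain Col6a3 by -1.46, the kinase Prkca by -1.09 and the corepressor Cbfa2t3 by -1.06. The calcium-binding genes S100a10 and S100a11 changed by -2.27 and -2.25. Sema4a, Sema4b, Cdh23, Col6a3, Prkca, Cbfa2t3, S100a10 and S100a11 lost the call without the first grey matter library (edgeR adjusted p = 0.0919 to 0.311). Sema4a, Sema4b, Col6a3, Prkca, Cbfa2t3 and S100a10 lost it without the second grey matter library (edgeR adjusted p = 0.118 to 0.196). S100a10 lost it without the first white matter library and without the second white matter library (edgeR adjusted p = 0.0603 to 0.0674).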
